A study of Mus musculus with 25 samples.

Results

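DNA methylation was compared between haematopoietic stem cells (HSCs) recovered after 500 old HSCs had been transplanted (3 libraries) and HSCs taken directly from old mice (2 libraries). These 5 of the 25 libraries of the series were chosen by their labels, not by any measured value, although earlier results of these data were known. The comparison uses autosomal CpGs with at least 5 reads in all 5 libraries, which kept 1123456 of the 1713065 autosomal CpGs listed in any of them. The series asks how HSC methylation differs over development and after a history of forced proliferation. It also holds fetal HSCs, young HSCs from mice aged 3.5 months, other transplanted HSCs and a 5-fluorouracil experiment with 0, 2 or 4 doses. For all libraries of that experiment the labels give 3.5 months with 6 months added. Its 0-dose libraries, which received no drug, therefore do not match the young HSCs in labelled age. All libraries are from C57Bl/6 mice and were made by reduced representation bisulfite sequencing (RRBS). RRBS reads cytosine methylation in CpG-rich restriction fragments, because bisulfite turns unmethylated but not methylated cytosines into bases read as thymine. The cells of both groups came from bone marrow. The old mice were 25 months old. For the transplanted group the labels give 500 old HSCs as the treatment, but not the age of the donors in months, the hosts, their conditioning, or the time from transplantation to collection. The sex of donors and hosts is not given for either group, and nothing says that replicates came from separate animals, so p-values measure only the spread between these libraries, which may be technical.

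HSCs are the mostly resting cells of the bone marrow that replace themselves and feed every blood lineage. A transplanted HSC divides many times as it rebuilds the blood of its host, and each round of replication makes new DNA strands that carry no methylation until the maintenance methyltransferase Dnmt1 copies the pattern. CpG-rich stretches at gene starts are usually unmethylated, whereas CpGs elsewhere are usually highly methylated, and de novo methylation by Dnmt3a and Dnmt3b and oxidation by Tet enzymes set the levels in between.

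The transplanted libraries held 48078042, 56547651 and 44806064 reads in replicates 1, 2 and 3, with a median of 23, 28 and 19 reads per CpG. The old libraries held 59708143 and 51487271 reads, with a median of 30 and 25 reads per CpG. The transplanted libraries stood apart from the old ones on the sex chromosomes, which are outside the comparison. At 566 tiles of chromosome X with a level under 10% in both young libraries, the mean level was 19.1%, 21.3% and 9.95% in the transplanted libraries, against 2.61% and 2.84% in the old libraries. Autosomal tiles chosen the same way read 2.29%, 2.50% and 1.64% in the transplanted libraries and 2.93% and 2.98% in the old libraries. Chromosome Y took 0.0418%, 0.0463% and 0.0354% of the reads in the transplanted libraries and 0.0586% and 0.0624% in the old libraries. All 11 transplanted libraries of the series read between 9.95% and 24.2% at these chromosome X tiles, and the 14 others between 1.42% and 2.95%. The part of whatever raised these levels in the autosomal results was not tested.

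No mm9 gene annotation was used. Gene starts were named by placing RefSeq promoter sequences (250 bases before to 50 after a start, from the GRCm38.p6 build) on the mm9 positions of the CpGs, by the spacing of the CpGs. This placed 7651 starts of 6809 genes, mostly CpG-rich ones, so that a nearest placed start need not be the nearest gene, and exons and introns were not assigned. Below are 4 such promoter windows, which are shown because they are the unmethylated or partly methylated starts beside the changes described later. They are written 5′ to 3′ on the strand of the gene, with mm9 positions. Capitals mark the CpGs that had at least 5 reads in all 5 libraries.
Kansl3, chr1:36425977-36426276, minus strand: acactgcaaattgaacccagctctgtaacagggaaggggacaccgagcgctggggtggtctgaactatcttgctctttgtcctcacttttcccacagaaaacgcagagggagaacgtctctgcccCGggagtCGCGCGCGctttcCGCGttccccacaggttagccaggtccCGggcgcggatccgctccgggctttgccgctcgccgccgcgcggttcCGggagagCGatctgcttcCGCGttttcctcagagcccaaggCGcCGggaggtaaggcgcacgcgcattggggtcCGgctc
Hoxa5, chr6:52154537-52154836, minus strand: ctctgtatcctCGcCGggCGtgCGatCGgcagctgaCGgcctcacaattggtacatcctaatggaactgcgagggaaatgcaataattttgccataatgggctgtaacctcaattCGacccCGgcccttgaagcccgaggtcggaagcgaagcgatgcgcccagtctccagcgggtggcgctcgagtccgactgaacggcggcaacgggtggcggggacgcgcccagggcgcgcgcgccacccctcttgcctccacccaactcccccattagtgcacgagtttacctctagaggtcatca
Trim47, chr11:115971500-115971799, minus strand: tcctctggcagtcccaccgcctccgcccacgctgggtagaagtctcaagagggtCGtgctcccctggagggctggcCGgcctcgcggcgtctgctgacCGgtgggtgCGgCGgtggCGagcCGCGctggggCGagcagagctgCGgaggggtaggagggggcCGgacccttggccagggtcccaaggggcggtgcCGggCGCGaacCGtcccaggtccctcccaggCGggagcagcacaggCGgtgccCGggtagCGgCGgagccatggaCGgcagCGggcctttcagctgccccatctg
Cbfa2t3, chr8:125202026-125202325, minus strand: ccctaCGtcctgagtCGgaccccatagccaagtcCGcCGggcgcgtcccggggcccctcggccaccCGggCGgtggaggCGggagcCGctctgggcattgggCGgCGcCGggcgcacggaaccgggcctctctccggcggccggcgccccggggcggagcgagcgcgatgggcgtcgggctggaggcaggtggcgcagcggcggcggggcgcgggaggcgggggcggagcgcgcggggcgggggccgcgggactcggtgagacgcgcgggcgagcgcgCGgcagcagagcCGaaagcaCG
Over its 15 capital CpGs the Kansl3 window read 2.42%, 2.38% and 2.62% in the transplanted libraries, against 14.3% and 17.9% in the old libraries. The window of Hoxa5 had 8 CpGs measured and read 66.1%, 65.5% and 37.8% in the transplanted libraries and 42.4% and 53.4% in the old libraries, which overlap. The Trim47 window was almost unmethylated in both groups, at 0.855%, 0.442% and 0.535% over 22 CpGs in the transplanted libraries and 1.40% and 2.58% in the old libraries. The Cbfa2t3 window, with 14 CpGs, was as low, at 0%, 1.71% and 1.27% in the transplanted libraries and 0.838% and 1.87% in the old libraries. For its 0%, a count of 0 in 358 reads allows a level of up to 0.838%, which covers counting error only.

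Methylation was lower after transplantation of 500 old cells. The mean level over all CpGs was 41.1%, 41.9% and 41.2% in the transplanted libraries, against 45.8% and 45.7% in the old libraries. In such bulk libraries a change within cells and a change in the mixture of cells cannot be told apart. The groups did not overlap, and their means of 41.4% ± 0.405 (SD, n = 3) and 45.7% ± 0.0998 (SD, n = 2) differed by -4.33 points. An exact permutation test over libraries (two-sided) gave p = 0.2, the smallest it can give for 3 against 2 libraries. The transplanted mean was lower at 87.2% of the 105713 tiles of 1 kb that held at least 3 of these CpGs, and the median tile difference was -4.41 points. This share counts small differences too. Of the tiles, 27.0% were under 20% in young HSCs, where the mean differences by CpG density were only -1.11 to -0.904 points. Against the mean of the old libraries, each transplanted library was shifted the same way, with median differences of -4.56, -4.23 and -3.14 points for replicates 1, 2 and 3. Counted over all reads in place of CpGs, which gives deep CpGs more weight, the methylated share was 36.8%, 41.3% and 30.5% in the transplanted libraries and 46.2% and 47.1% in the old libraries.

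The shift came with fewer fully methylated CpGs and more at intermediate levels. CpGs at 90% or more made up 15.5%, 15.3% and 19.9% of all CpGs in the transplanted libraries, against 32.0% and 31.7% in the old libraries. CpGs from 50% to under 80% made up 14.55%, 14.2% and 12.004% in the transplanted libraries, against 6.51% and 6.45% in the old libraries. At the unmethylated end, 36.0%, 35.4% and 39.2% of CpGs were at 0% in the transplanted libraries, against 27.8% and 27.1% in the old libraries. CpGs above 0% but under 10% were correspondingly fewer, at 9.90%, 9.97% and 8.13% in the transplanted libraries against 17.6% and 18.2% in the old libraries. In each of these ranges the groups did not overlap, with exact permutation p = 0.2. Because depth limits how often a CpG can read exactly 0% or 100%, every CpG was also thinned to 5 reads. None of the 5 reads was then methylated at 45.7%, 45.2% and 47.2% of CpGs in the transplanted libraries and at 43.9% and 43.5% in the old libraries, a smaller gap than that between the shares at 0% before thinning. All 5 reads were methylated at 20.5%, 21.2% and 22.6% of CpGs in the transplanted libraries and at 31.1% and 30.6% in the old libraries, and between 1 and 4 reads at 33.8%, 33.7% and 30.1% in the transplanted libraries and at 25.0% and 25.8% in the old libraries. Low residual levels were not limited to transplanted libraries. At the autosomal tiles under 10% in both young libraries, fetal libraries read 1.60% and 1.45% and old libraries 2.93% and 2.98%. Libraries given 2 doses of 5-fluorouracil read 1.90%, 1.84% and 1.89% there, and those given 0 doses 2.48%, 2.42% and 2.06%. What sets these levels was not tested.

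**Figure D1:**
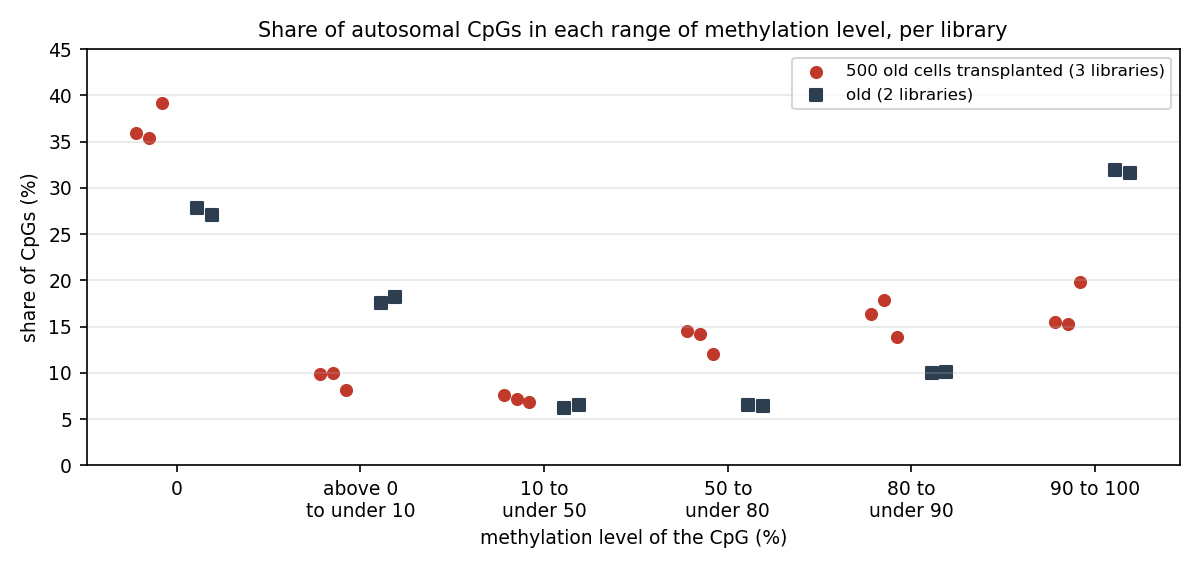
Share of autosomal CpGs (y axis, %) in 6 ranges of methylation level (x axis, %), with 1 point per library, red circles for 500 old cells transplanted and dark squares for old. At 90% or more the transplanted libraries lie between 15.3% and 19.9%, below the old libraries at 32.0% and 31.7%, and from 50% to under 80% they lie above them.

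Tiles were classed by their level in the 2 young libraries (mice aged 3.5 months), which are outside the comparison, and by the number of covered CpGs. Highly methylated, CpG-poor tiles, at 80% or more in young HSCs with fewer than 10 CpGs, are the largest class with 51767 tiles. They averaged 83.7%, 84.3% and 85.7% in the transplanted libraries and 92.1% and 92.0% in the old libraries, a difference of -7.49 points. With 10 to 29 CpGs the difference was -3.84 points, at 87.2%, 87.4% and 88.1% in the transplanted libraries and 91.4% and 91.5% in the old libraries. With 30 or more CpGs it was -3.09 points over 248 tiles, so that the difference shrank as CpGs became denser. Within the CpG-poor class the median difference was -7.64 points in tiles with 3 covered CpGs and -4.55 points in tiles with 9.

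Among tiles of intermediate level, from 20% to 80% in young HSCs, the CpG-poor ones had the largest difference. Their 16246 members averaged 57.9%, 61.2% and 56.4% in the transplanted libraries, against 69.6% and 68.2% in the old libraries, a difference of -10.4 points. With only CpGs of 20 or more reads it was -6.15 points, about that of the CpG-poor tiles at 80% or more in the same setting, -6.05 points. With 10 to 29 CpGs the transplanted libraries read 64.7%, 66.7% and 61.0% and the old libraries 67.9% and 67.6%, a difference of -3.60 points that turned to 0.277 points when only CpGs with 20 or more reads were used. The 107 intermediate tiles with 30 or more CpGs did not share the loss. They read 66.7%, 67.6% and 61.8% in the transplanted libraries and 63.2% and 64.2% in the old libraries, which overlap (exact permutation p = 0.6). Tiles under 20% in young HSCs differed by -1.11 to -0.904 points, and the CpG-poor ones among them by -0.579 points with only CpGs of 20 or more reads. Those with 30 or more CpGs read 1.80%, 1.92% and 1.35% in the transplanted libraries and 2.52% and 2.67% in the old libraries, and those with fewer than 10 CpGs read 6.77%, 7.78% and 5.03% in the transplanted libraries and 7.95% and 7.33% in the old libraries. In 7 of the 9 classes the exact permutation test gave p = 0.2 (0.257 after Benjamini-Hochberg adjustment over the 9), its smallest value.

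**Figure D2:**
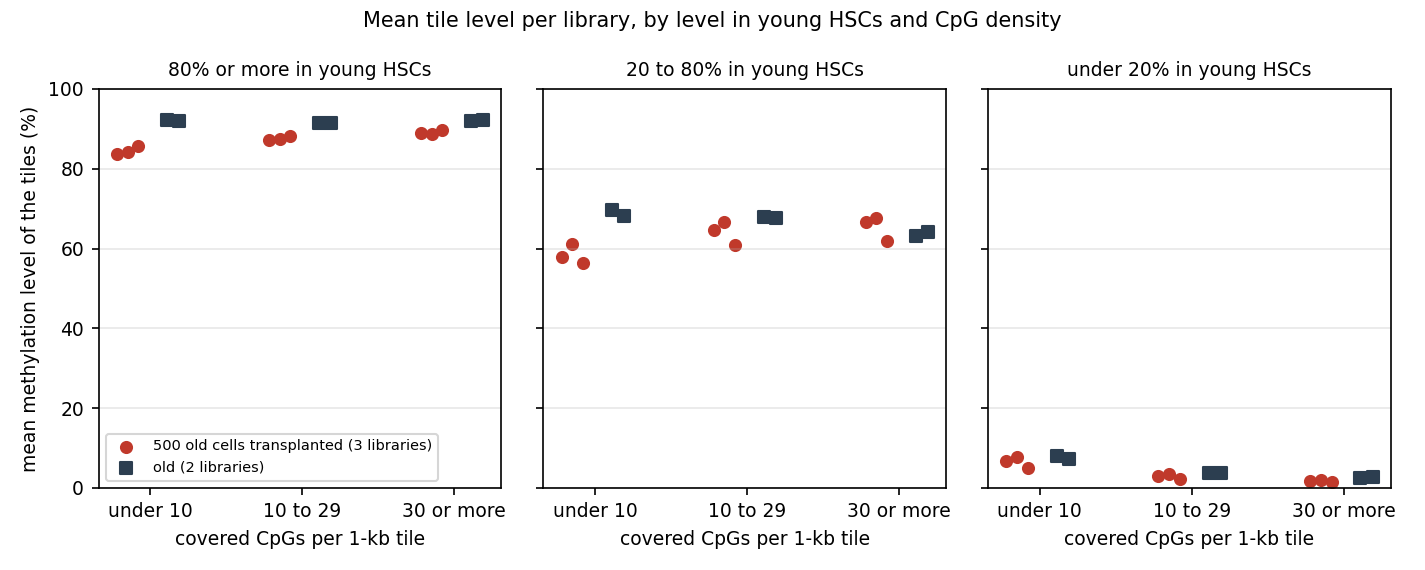
Mean methylation level of 1-kb tiles (y axis, %) in each library, by the number of covered CpGs per tile (x axis) and the level in young HSCs (panels), with red circles for 500 old cells transplanted and dark squares for old. The gap is widest for tiles with under 10 CpGs at 20% to 80%, where the transplanted libraries lie between 56.4% and 61.2% and the old libraries at 69.6% and 68.2%, and the groups overlap at 30 or more CpGs in the same panel.

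Single tiles were tested with a quasi-binomial model of methylated and total reads, with the dispersion moderated across tiles as in limma, and called changed where the groups' means lay 10 points or more apart and the Benjamini-Hochberg adjusted p was under 0.05. By this rule 1871 tiles lost methylation after transplantation (1.77% of the 105713 tested) and 108 gained it (0.102%). The median difference was -29.002 points for the lost tiles and 30.3 points for the gained tiles. All 1979 changed tiles had groups that did not overlap, but so did 58.0% of all tiles in the direction of loss and 3.00% in the direction of gain. CpG-poor tiles made up 95.1% of the changed tiles and 76.4% of the tested ones. Among tiles with fewer than 10 CpGs, 6.01% of those at intermediate level in young HSCs lost methylation, against 1.38% of those at 80% or more and 0.701% of those under 20%. The smallest adjusted p was 0.0273, so that all calls lie near the threshold, and their number moved widely: 17448 tiles were called with limma on logit levels, and none without transplanted replicate 1, without old replicate 1 or without old replicate 2. At an unadjusted p under 0.05 there were 30451 tiles, 28.8% of those tested.

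The largest losses were tiles that were high in old HSCs and low after transplantation. They are named by rule: the 12 largest losses and 12 largest gains among changed tiles with at least 5 CpGs and at least 50 reads in every library. The largest lay at chromosome 16, 30186001 to 30187000, with 1.03%, 9.86% and 2.90% in the transplanted libraries and 74.1% and 55.2% in the old libraries. This difference of -60.0 points had an adjusted p of 0.0279 in the quasi-binomial test, over 54 to 142 reads per library. A tile at chromosome 6, 113640001 to 113641000, 6.04 kb upstream of the placed start of Tatdn2, which encodes a TatD-type nuclease, had 6.86%, 18.3% and 16.2% in the transplanted libraries and 67.0% and 70.4% in the old libraries. On chromosome 10, 79260001 to 79261000, a tile 3.68 kb downstream of the start of Palm, which encodes the membrane-shaping protein paralemmin, had 20%, 16.99% and 34.8% in the transplanted libraries and 69.9% and 77.03% in the old libraries. At chromosome 13, 52872001 to 52873000, the transplanted libraries read 22.3%, 13.9% and 4.55% and the old libraries 60.4% and 68.6%. The tile at chromosome 17, 3453001 to 3454000, was the most even, with 23.2%, 28.99% and 26.6% in the transplanted libraries and 76.7% and 75% in the old libraries.

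The other 7 losses lay at chromosome 3 (32588001), 5 (76004001, 115041001 and 137561001), 7 (133421001), 9 (70243001) and 11 (79466001). Over all 12 losses the transplanted libraries read between 1.03% and 54.6% and the old libraries between 55.2% and 89.97%, with differences from -48.4 to -60.0 points and adjusted p from 0.0273 to 0.0405 in the quasi-binomial test. In young HSCs, outside the comparison, all 12 were below the old mean, and 9 were nearer to the transplanted than to the old mean. The choice of tiles with a high old level enters these counts, since the old mean was above young at 97.1% of all lost tiles and at 74.8% of all tiles. The 2 young libraries differed from each other at some of the 12, with 3.03% and 24.1% at the tile on chromosome 16 and 23.1% and 54.5% at that on chromosome 17.

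The largest gain lay at chromosome 11, 115967001 to 115968000, 3.55 kb downstream of the placed start of Trim47, which encodes a ubiquitin ligase of the tripartite motif family. It read 89.5%, 90% and 84.6% in the transplanted libraries and 32.1% and 34.0% in the old libraries, over 396 to 530 reads, a difference of 55.0 points (adjusted p = 0.0273 in the quasi-binomial test). High levels here were not particular to transplantation. Outside the comparison the tile averaged 45.1% in fetal and 65.2% in young HSCs. After 0, 2 and 4 doses in the 5-fluorouracil experiment it averaged 81.9%, 79.6% and 58.0%. This tile opens the only run of 3 or more changed tiles with neighbours at most 2 kb apart, of either direction. The next tile, from 115968001, had 44.2%, 53.7% and 54.5% in the transplanted libraries and 15.4% and 16.3% in the old libraries. From 115969001 the levels were 67.1%, 68.2% and 39.4% in the transplanted libraries and 8.18% and 9.95% in the old libraries. From 115970001, within 1 kb of the start, they were 31.2%, 28.5% and 17.7% in the transplanted libraries and 3.90% and 1.92% in the old libraries. The tile over the start itself, with 45 CpGs, stayed at 0.830%, 0.574% and 0.452% in the transplanted libraries and 1.18% and 2.22% in the old libraries. Of the 26 CpGs covered in the 4 gained tiles, every transplanted library was above both old libraries at 23. The same reads called these tiles, so this count is no separate support.

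**Figure D3:**
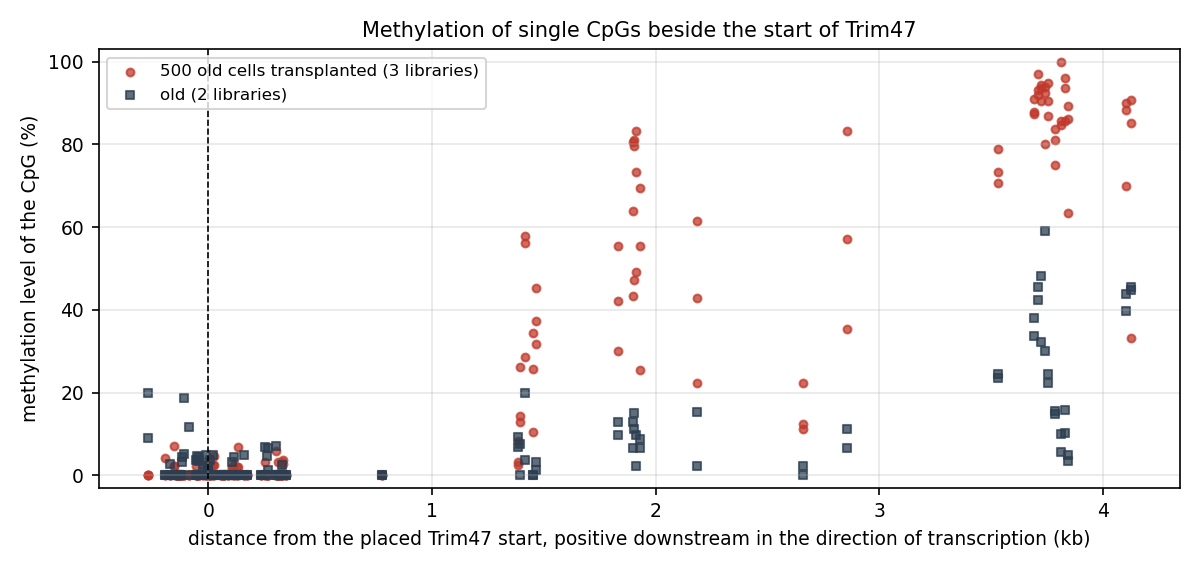
Methylation level of single CpGs (y axis, %) by distance from the placed Trim47 start in the direction of transcription (x axis, kb), with red circles for the 3 libraries of 500 old cells transplanted and dark squares for the 2 old libraries. CpGs at the start are near 0 in both groups, and 23 of the 26 CpGs of the 4 gained tiles have every transplanted library above both old libraries. The choice of these tiles from the same reads favours that count.

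The second gain had the same arrangement. At chromosome 8, 125198001 to 125199000, 3.08 kb downstream of the start of Cbfa2t3, a transcriptional corepressor of blood cells, the level was 72.5%, 76.2% and 61.5% in the transplanted libraries and 19.7% and 13.7% in the old libraries, a difference of 53.4 points. A tile 1.08 kb downstream of that start had 57.1%, 51.5% and 50.2% in the transplanted libraries and 31.1% and 29.3% in the old libraries, which did not pass the test (adjusted p = 0.0525). One that ends within 0.1 kb of it had 18.1%, 15.7% and 8.23% in the transplanted libraries and 2.46% and 3.40% in the old libraries (adjusted p = 0.0597), and the 60 CpGs over the start were at most 1.27% in every library. Outside the comparison the gained tile averaged 65.3% in fetal and 21.3% in young HSCs. After 0, 2 and 4 doses in the 5-fluorouracil experiment it averaged 48.3%, 48.9% and 51.4%.

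At Hoxa5, a homeobox transcription factor of the Hoxa cluster, the tile at chromosome 6, 52153001 to 52154000, had 63.6%, 77.4% and 49.8% in the transplanted libraries and 28.3% and 29.1% in the old libraries, a difference of 34.9 points (adjusted p = 0.0463). The tile over its start, with 42 CpGs, read 50.6%, 59.9% and 23.8% in the transplanted libraries and 28.2% and 27.9% in the old libraries, where replicate 3 lies below both old libraries. A tile upstream of the start of the neighbouring Hoxa6, from 52159001, gained as well, with 34.5%, 34.8% and 26.0% in the transplanted libraries and 9.89% and 12.5% in the old libraries (adjusted p = 0.0483). Unlike at Trim47 and Cbfa2t3, the Hoxa5 start was itself partly methylated in old HSCs. Outside the comparison the changed Hoxa5 tile was not high in every transplanted group. It read 60.2% after 10 and 75% after 50 old cells and 61.1% after 10 and 71.2% after 50 young cells, but 26.5% after 500 young cells. Untransplanted HSCs ranged as widely, with 7.72% in fetal and 27.5% in young HSCs and with 58.4%, 43.5% and 37.2% after 0, 2 and 4 doses in the 5-fluorouracil experiment.

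Among the remaining gains, the tile at chromosome 8, 87308001 to 87309000, was the densest, with 31 CpGs and 831 to 1448 reads. It read 59.4%, 62.5% and 53.3% in the transplanted libraries and 28.4% and 16.4% in the old libraries. A tile at chromosome 3, 129137001 to 129138000, had 78.1%, 62.4% and 67.4% in the transplanted libraries and 18.1% and 26.6% in the old libraries, but over the CpGs covered in all 15 young, old and transplanted libraries its difference was -8.98 points. The tile on chromosome 18 from 52913001 had 70.3%, 74.3% and 65.4% in the transplanted libraries and 17.4% and 18.2% in the old libraries. The others lay at chromosome 4 (153733001), 5 (118887001), 14 (48015001), 15 (36822001) and 19 (25197001). Over all 12 gains the adjusted p ran from 0.0273 to 0.04997 in the quasi-binomial test, and replicate 3 was the lowest of the transplanted libraries at 10 of the 12, with 23.9% at chromosome 15 against 59.2% and 57.1% in replicates 1 and 2. In 9 of the 12 young HSCs were above the old mean, as at 83.7% of all gained tiles, which were chosen for a low old level, and at 25.1% of all tiles.

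**Figure D4:**
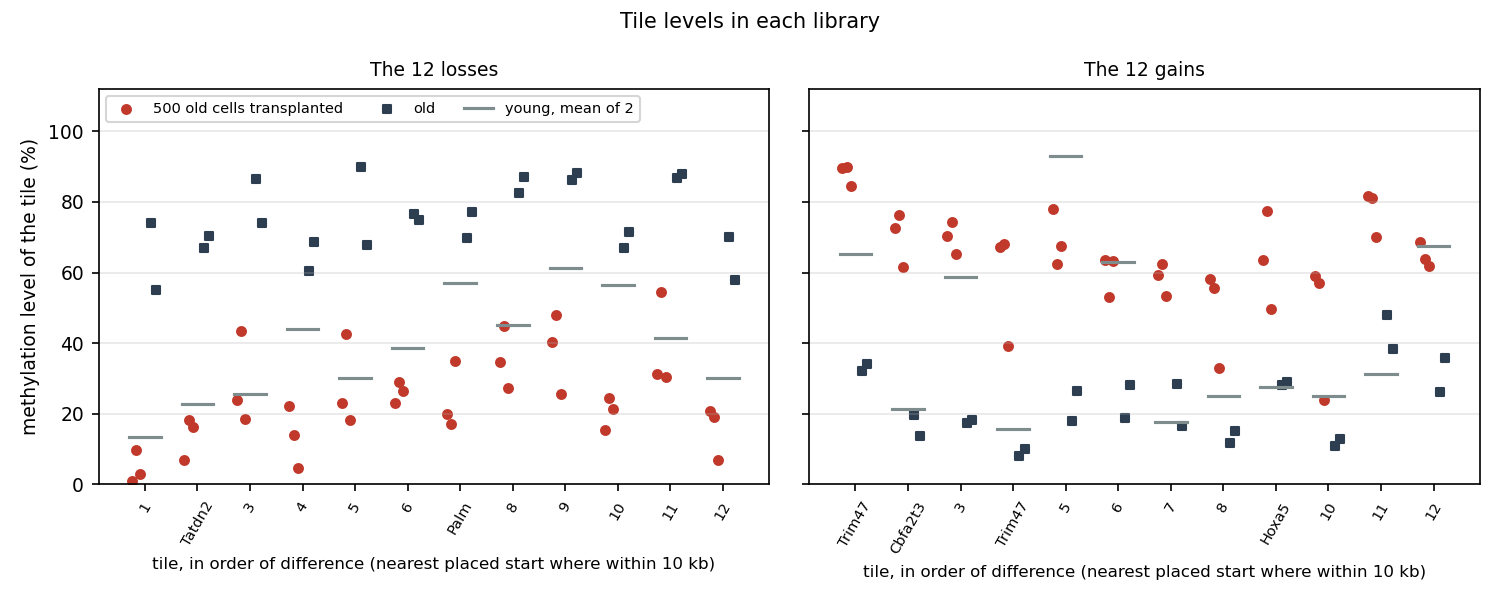
Methylation level (y axis, %) of the 12 largest losses and the 12 largest gains, in order of their difference (x axis), with red circles for the 3 transplanted libraries, dark squares for the 2 old libraries and grey bars for the mean of the 2 young libraries. Losses lie between 1.03% and 54.6% in the transplanted libraries against 55.2% and above in the old libraries, which the choice of the tiles fixes.

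Few changes lay at gene starts. Of 10814 tiles within 1 kb of a placed start, 28 lost (0.259%) and 3 gained (0.0277%), against 1.94% and 0.111% of all other tiles. The median difference was -1.06 points at starts and -5.16 points elsewhere. Levels differed too, with 94.3% of the tiles at starts under 20% in young HSCs, against 19.4% of other tiles. Among tiles under 20% in young HSCs, 0.108% of those at starts lost and 0.0196% gained, against 0.457% and 0.201% of other tiles, and the median differences were -1.04 and -0.882 points. The 3 gains are those of Trim47, Hoxa5 and Hoxa6 given above.

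In the 28 losses at starts the differences ran from -14.3 to -55.1 points, and in 9 the transplanted mean was under 10%. Beside Mdm1, which encodes a microtubule-binding protein, a tile with 16 CpGs read 4.46%, 5.05% and 3.13% in the transplanted libraries and 32.0% and 42.0% in the old libraries, with 5.25% in young HSCs. At the start of Kansl3, a subunit of a histone acetyltransferase complex, the tile with 14 CpGs read 2.58%, 2.61% and 2.73% in the transplanted libraries and 14.9% and 18.98% in the old libraries, with 5.38% in young HSCs. Kansl3 is also one of the windows printed above, where the capital CpGs themselves carry the difference.

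Rpl28 and Rpl13 encode proteins of the large ribosomal subunit. The Rpl28 tile read 4.53%, 10.3% and 1.48% in the transplanted libraries and 23.01% and 22.2% in the old libraries, and the Rpl13 tile 7.51%, 12.8% and 9.24% in the transplanted libraries and 30.6% and 32.4% in the old libraries. Gnptab, whose product tags lysosomal enzymes, had 3.07%, 4.83% and 4.79% in the transplanted libraries and 33.6% and 17.8% in the old libraries. Mapk7, a mitogen-activated kinase, had 28.1%, 29.03% and 21.02% in the transplanted libraries and 43.7% and 61.2% in the old libraries. The largest losses at starts were beside Rom1, a photoreceptor membrane protein, with 32.7%, 44.3% and 13.7% in the transplanted libraries and 78.6% and 92.2% in the old libraries, and Dnah1, a dynein of motile cilia, with 13.6%, 28.9% and 13.2% in the transplanted libraries and 73.3% and 57.8% in the old libraries. These last 2 tiles held only 3 CpGs. Sox8, Nipa1, Ccdc71, Crip1, Gabpb1, Cnp, Svbp, Sema4g and Haspin are among the others. Adjusted p over all 31 changed tiles at starts ran from 0.0273 to 0.04997 in the quasi-binomial test.

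In 12 lists of blood and chromatin genes no tile at a placed start was called, but only 0.287% of all tiles at placed starts were called in either direction, so the count says little of the lists. Of 158 genes in the lists, 44 had a placed start, with 99 tiles, of which 92 were under 20% in all 5 libraries, and the median difference was -1.12 points. It was -1.06 points over all tiles at placed starts, so the medians of the lists below lie near that of starts in general. Stem cell transcription factors (7 of 20 placed) had a median difference of -1.10 points over 19 tiles, DNA methylation enzymes and their partners (8 of 10) -1.31 points over 15 tiles, Polycomb subunits (6 of 12) -1.14 points over 13 tiles, cell cycle inhibitors and cyclins (7 of 14) -0.636 points over 16 tiles, and immediate early genes (5 of 12) -1.17 points over 11 tiles. Of the tiles at DNA methylation enzymes, 14 of 15 were under 20% in all 5 libraries, the exception lying beside Uhrf1, the partner of Dnmt1. The densest tile of Dnmt3a read 0.0548%, 0.193% and 0.101% in the transplanted libraries and 1.54% and 1.34% in the old libraries. It also averaged 0.335% in fetal HSCs and 0.168% after 2 doses of 5-fluorouracil, but 1.29% in young HSCs and 1.11% after 0 doses. The largest differences among listed genes did not pass the test. Beside Cebpb, a myeloid transcription factor, 1 tile had 39.4%, 55.4% and 48.5% in the transplanted libraries and 75.8% and 73.3% in the old libraries (adjusted p = 0.0508). Beside Runx1, a transcription factor needed to form HSCs, 1 tile had 62.1%, 72.2% and 78.7% in the transplanted libraries and 90.7% and 84.9% in the old libraries (adjusted p = 0.0609). Both were named after their values were seen.

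The marker lists give little check of the labelled cell type. Of the stem cell surface and ageing markers, Fgd5 and Flt3 had placed starts, and their 4 tiles were under 20% in all 5 libraries. Markers of myeloid (2 genes placed), T and NK (2), erythroid and platelet (2) and stromal and endothelial cells (2) were likewise under 20% in all 5 libraries at 15 of their 18 tiles, and no B cell marker was placed.

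Losses lay on all 19 autosomes, but the share of tiles lost was not even by the density of CpGs around them. The median tile difference ran from -4.69 points on chromosome 16 to -3.89 points on chromosome 19, and between 1.47% and 2.31% of the tiles of a chromosome lost methylation. For CpG-poor tiles at 80% or more in young HSCs, the median difference was -5.69 points within 2 kb of a tile with 30 or more CpGs and -6.66 points farther than 100 kb from one. The share lost went the other way, with 2.61% of 499 tiles within 2 kb and 1.06% of 29625 tiles beyond 100 kb. By the number of covered CpGs per megabase the median difference was -6.42 points in the 1st of 5 equal groups, the sparsest, and -6.88 points in the 5th, the densest. The share lost was 0.756% in the sparsest group and 1.92% in the densest. Tiles with under 30 reads in the thinnest library had a median of -8.43 points and those with 120 or more reads -5.92 points.

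Lost tiles had low levels in the other transplanted groups too. Over the 1871 lost tiles the median level was 54.0%, 60.4% and 55.4% in the libraries of 500 old cells and 89.7% and 88.5% in the old libraries, which the rule for the tiles fixes. In libraries that did not choose them, the median was 53.0% and 57.4% after 10 old cells, 57.5% after 50 old cells, 54.0% after 500 young cells, 55.5% after 50 young cells and 52.5%, 54.2% and 47.8% after 10 young cells. Untransplanted HSCs read higher: 79.0% and 80.7% in fetal, 72.9% and 78.1% in young and between 73.8% and 82.7% in the 8 libraries given 0, 2 or 4 doses of 5-fluorouracil, a drug that kills dividing cells. The mean of the 500 old cells was below young at 93.9% of lost tiles, against 75.1% of all tiles, but low levels in these libraries chose the tiles.

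For the 108 gained tiles the medians were 52.2%, 53.7% and 41.5% after 500 old cells and 15.1% and 16.2% in old HSCs. Other transplanted libraries read between 40.3% and 54.3%, young HSCs 27.01% and 27.4%, fetal HSCs 46.5% and 43.7%, and libraries of the 5-fluorouracil experiment between 32.4% and 45.7%. Transplantation of 10 young cells, set against young HSCs, shares no library with the comparison of 500 old cells with old HSCs. At the 1493 lost tiles covered in both, 10 young cells were lower than young at 95.6%, against 82.4% of all tiles, with a median of -19.6 points. At 95 gained tiles they were higher at 87.4%, against 17.4% of all tiles, with a median of 14.6 points.

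**Figure D5:**
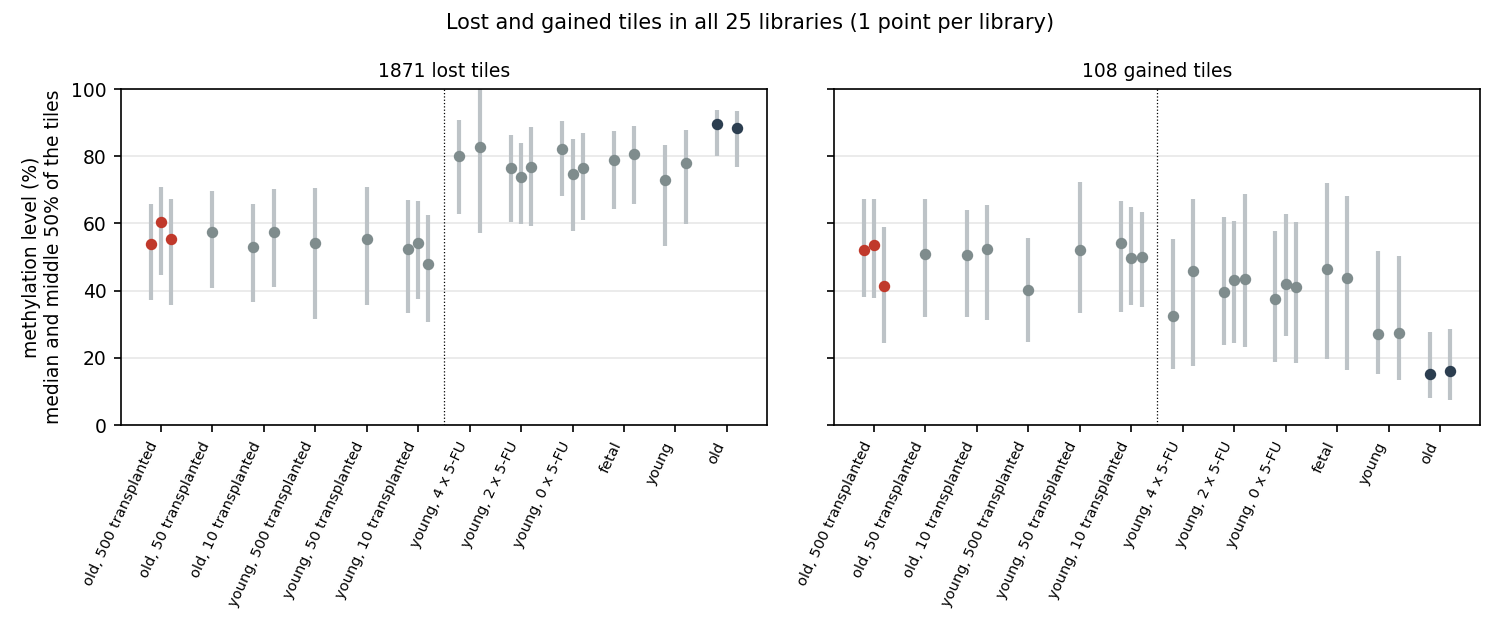
Median methylation level (points, y axis, %) and middle 50% (bars) of the 1871 lost and 108 gained tiles in each of the 25 libraries, by group (x axis), with transplanted groups left of the dotted line. In the lost tiles all 11 transplanted libraries have medians between 47.8% and 60.4% and all 14 others lie at 72.9% or above.

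Tiles that differ with age were read in libraries that did not choose them. Of tiles at least 20 points higher in old replicate 1 than in young HSCs, with at least 30 reads in every library, there were 2470. Their median level was 46.4%, 55.2% and 40.5% in the transplanted libraries, against 66.9% in old replicate 2, which took no part in the choice. Chosen from old replicate 2, 1964 tiles had 48.1%, 57.1% and 42.2% in the transplanted libraries and 73.5% in old replicate 1. The young medians, 41.7% and 42.8%, belong to libraries that chose the tiles. Tiles that were lower in old HSCs showed the opposite shift. The 230 chosen from old replicate 1 had 56.8%, 59.6% and 52.1% in the transplanted libraries and 43.6% in old replicate 2, and the 298 chosen from old replicate 2 had 55.2%, 56.6% and 52.2% in the transplanted libraries and 46.7% in old replicate 1, with young medians of 69.2% and 67.8%. At age-gained tiles the transplanted mean was below the old library read at 90.2% and 92.9% of tiles, against 87.2% of all tiles below the old mean.

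The number of transplanted cells was compared directly within the old donors. Between 500 and 10 old cells transplanted, 0 of 90382 tiles were called by the quasi-binomial test in a fit of 15 libraries, with 4690 tiles (5.19%) at an unadjusted p under 0.05, and limma called 0 as well. The median tile difference was 1.41 points higher after 500 cells, and 69.3% of tiles were higher. Highly methylated CpG-poor tiles averaged 83.7%, 84.3% and 85.7% after 500 old cells, against 80.4% and 80.9% after 10 old cells, which do not overlap (exact permutation p = 0.2). Old HSCs read 92.1% and 92.02% over these tiles. Intermediate CpG-poor tiles read 57.9%, 61.2% and 56.4% after 500 old cells and 55.3% and 58.2% after 10 old cells, which overlap.

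Whether the change after 500 old cells differed from that after 10 young cells was tested as a difference of differences in the same fit, where donor age and cell number both differ. It passed at 13 of 90382 tiles (0.0144%), 8 with a lower and 5 with a higher value for 500 old cells. At chromosome 14, 56195001 to 56196000, the level was 4.49%, 2.98% and 2.30% after 500 old cells and 58.6% and 34.8% in old HSCs, whereas it was 6.53%, 13.8% and 19.6% after 10 young cells and 4.65% and 3.81% in young HSCs. At chromosome 7, 77835001 to 77836000, it was 61.6%, 64.1% and 62.4% after 500 old cells and 29.4% and 30.1% in old HSCs, whereas it was 34.9%, 39.3% and 33.5% after 10 young cells and 59.3% and 62.8% in young HSCs. The number of such tiles was 0 without replicate 1 of 500 old cells, without replicate 2 of 10 young cells, and without any 1 of the old and young libraries. It was 4 without replicate 3 of 500 old cells and 7 without replicate 3 of 10 young cells.

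Replicates of the transplanted group differed from each other more than the 2 old libraries did. The mean absolute difference of tile levels was 4.01, 4.97 and 5.29 points between pairs of transplanted libraries and 3.27 points between the old libraries, and it was 6.91 to 7.92 points between the groups. After thinning every CpG to 5 reads it was 7.60 to 8.09 points within the transplanted group, 6.05 points within the old group and 8.79 to 9.64 points between groups. In intermediate CpG-poor tiles the SD beyond binomial counting error was 6.22 points in the transplanted group and 4.41 points in the old group. Tiles where 1 transplanted library stood at least 30 points from both others, themselves within 10 points, numbered 7, 30 and 96 for replicates 1, 2 and 3, of 99683 tiles with at least 30 reads, and in replicate 3 the level was lower at 92 of the 96.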

How the data were processed

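DNA methylation was measured by RRBS in 25 libraries, with 1 deposited file per library. The files list CpGs with their position, the methylated over the total reads (the authors' own field, in which both counts stand together) and a score. The deposited score, made by the authors, equalled 1000 times the methylated share, rounded down, and was not used. The submitters' processing notes name mm9 as the build. The aligner, the methylation caller and any removal of duplicates are not stated in the sources used here. Reads carry no molecular identifiers, so intervals and limits cover counting error only.

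CpGs on the 19 autosomes with at least 5 reads in all 5 libraries were summed in 1000-bp tiles with at least 3 such CpGs. A quasi-binomial model with 1 mean per group was fitted to these reads, with Williams weights because reads of 1 library are not independent. Dispersions were moderated with limma's squeezeVar, with a trend on depth, and held at 1 or more (3 residual and 5.76 prior degrees of freedom). F-test p-values were Benjamini-Hochberg adjusted across every tile tested. Tile levels are percent of reads methylated, and group means weight libraries equally. The script was tested on reads simulated with the within-library correlation that the fit had estimated. Such a test cannot show how well the model describes the spread of these libraries. Single values per library were compared by two-sided exact permutation tests. The fit of 15 libraries held the young, old and transplanted groups.

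The libraries, gene lists and the rule for named tiles were chosen with earlier results of these data known. That rule takes the 12 largest losses and gains among changed tiles with at least 5 CpGs and 50 reads in every library, at most 4 changed tiles per gene list, and runs of 3 or more changed tiles. Naming starts by placed RefSeq sequences was added after the files had been seen, as were the tiles chosen by age. Of 15382 autosomal promoter sequences with at least 8 CpGs, 7665 were placed and 14 left out for lying out of order with both neighbours. Analyses used Python 3.11.15, numpy 2.4.6, scipy 1.17.1, pandas 2.3.3, matplotlib 3.10.9 and limma 3.58.1 in R 4.3.3.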

Additional observations from a re-analysis of the deposited data

Results flagged for a closer look

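At 13 tiles the change after 500 old cells, set against old HSCs, differed from the change after 10 young cells, set against young HSCs, by the quasi-binomial test of the difference of differences. A negative value means a lower difference for 500 old cells. The 8 negative values were -76.1 points at chromosome 12 (28108001), -74.7 at chromosome 18 (38625001), -68.1 at chromosome 17 (64051001), -65.9 at chromosome 1 (153741001), -53.6 at chromosome 5 (77286001), -53.3 at chromosome 7 (123037001), -52.5 at chromosome 14 (56195001) and -44.8 at chromosome 19 (5757001). The 5 positive values were 49.8 points at chromosome 16 (28596001), 53.7 at chromosome 4 (86358001), 57.1 at chromosome 9 (119469001), 58.1 at chromosome 7 (77835001) and 59.2 at chromosome 12 (104452001). Donor age and the number of transplanted cells both differ in this contrast. Its value also depends on the untransplanted groups. At chromosome 19 (5757001) the means were 59.2% after 500 old and 58.4% after 10 young cells, against 63.9% in old and 18.2% in young HSCs. At chromosome 12 (28108001) the transplanted groups lay apart, at 37.0% and 65.7%, as did old and young HSCs, at 65.9% and 18.4%.

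On chromosome X, which is outside the comparison, tiles that are low in young HSCs read higher after transplantation. All chromosome X CpGs with at least 5 reads in the library averaged 66.7%, 68.6% and 64.9% in the transplanted libraries. In the old libraries they averaged 70.6% and 70.2%, so that the chromosome as a whole was lower after transplantation. Over 566 tiles under 10% in young HSCs the mean was 19.1%, 21.3% and 9.95% in transplanted replicates 1, 2 and 3, against 2.61% and 2.84% in the old libraries. With chromosome X in the fit, 2719 tiles lost and 483 gained, in place of 1871 and 108. The labels give no sex, and the part of this in the autosomal results was not tested.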

How the results depend on the processing

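The mean difference between libraries kept its direction in all 8 alternatives, as did the differences of the 5 other classes tried in all of 11 each; the class from 20% to 80% with 10 to 29 CpGs turned to 0.277 points at 20 reads per CpG. The count of 1979 changed tiles was within 1.5 times of that number at 10 reads per CpG, with CpGs over 500 reads left out and at 20 points. It was 156 at 20 reads per CpG, 497 with at least 5 CpGs per tile, 0 with 300-bp tiles and 0 with no minimum of CpGs (22425 and 59947 tiles had an unadjusted p under 0.05 in these quasi-binomial fits), 17448 with limma, 5400 in the fit of 15 libraries, 5416 with the library offset removed, 3202 with chromosome X, 17495 without weights and 16659 with the dispersion not held at 1, an alternative chosen after seeing the data. Losses outnumbered gains wherever tiles were called. All 1871 lost and 108 gained tiles were also called with limma, without weights and with the offset removed. Each of these settings called many more tiles, so this overlap says little of how stable the calls are. Leaving out 1 library at a time gave 0 to 6004 changed tiles, with 0 without transplanted replicate 1 and without either old library. A replicate block gave 1240 changed tiles. The tile deviations of same-numbered libraries had r = -0.0129 and -0.0766. This cannot decide whether the numbers mark pairs, because the deviations of 2 old libraries mirror each other and those of single tiles hold counting error. The main fit did not take the numbers as pairs. The cause of the shifts in the number of changed tiles was not tested.

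The share of CpG-poor tiles at 80% or more in young HSCs that lost was 0.151% at 20 reads per CpG, 0% with 300-bp tiles, 0.782% with the block, 4.89% with the offset removed and 0% to 5.58% without 1 library. For those from 20% to 80% it was 1.54%, 0%, 3.64%, 13.6% and 0% to 10.2% in the same alternatives. After thinning to 5 reads the mean absolute differences were 7.82 points within the transplanted group, 6.05 within the old group and 9.19 between groups. The comparison of 500 with 10 old cells gave 0 changed tiles in all 9 alternatives. The 13 tiles of the difference of differences became 0 to 17 without 1 library. Of 416 values for the named tiles under the alternatives, 307 stayed on their side of the threshold, 108 no longer passed, and chromosome 3 (129137001) turned to -8.98 points in the fit of 15 libraries.

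With 3 against 2 libraries no class mean can pass 0.05 in the exact test, and the named tiles have an adjusted p of 0.0273 or more in the quasi-binomial fit.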

Other observations

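Beside the run at Trim47, there were 22 pairs of lost and 2 pairs of gained tiles whose starts lay at most 2 kb apart, of which 19 and 2 were directly adjacent. The pair at chromosome 1, 36298001 to 36300000, 1.15 kb downstream of the placed start of Uggt1, which encodes a folding sensor of the endoplasmic reticulum, had a median difference of -42.2 points between 500 old cells transplanted and old HSCs. The pair at chromosome 6, 88066001 to 88068000, had -47.6 points. The gained pair at chromosome 5, 118886001 to 118888000, which holds one of the named gains, had 31.6 points.

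At 69 CpG-rich autosomal tiles of intermediate level in all 5 libraries, the mean level was 39.6%, 41.6% and 33.2% in the transplanted libraries and 37.1% and 37.7% in the old libraries, which overlap. Over the same tiles young HSCs read 25.1% and 25.4% and fetal HSCs 20.9% and 20.8%. Young and fetal HSCs took no part in the choice of these tiles and were free to lie outside the intermediate range. The choice therefore enters their lower means, and how much of the gap it makes was not tested.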
